A study of Canis lupus familiaris with 9 samples.

Results

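The genes described here are 8 that encode the core machinery of mitochondrial fusion and fission, MFN1, MFN2, OPA1, YME1L1, OMA1, DNM1L, FIS1 and MFF. They were chosen by name, and every probe set of the array whose only gene symbol in the platform annotation is one of these was taken. This gave 25 probe sets of 42924 that are not controls, for 8 of 15115 genes. Where a gene has several probe sets, that of highest mean across the arrays stands for it, with the others given beside it. The samples were skeletal muscle of 9 beagles, all intact females aged 4 years, taken at week 24 of a feeding trial and measured on an Affymetrix canine array. The 5 dogs of the ad libitum group (animals 2, 5, 6, 7 and 8) ate without restriction, and the 4 control dogs (animals 1, 3, 4 and 9) received the amount that held body weight at its baseline. All dogs ate the same commercial diet and were sampled after an overnight fast, with 1 array per dog.

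Mitochondria of muscle form a network that is joined by fusion and divided by fission. The mitofusins MFN1 and MFN2, large GTPases of the outer membrane, tether and fuse outer membranes, and OPA1, a dynamin-like GTPase of the inner membrane, fuses inner membranes and shapes cristae. The inner membrane proteases YME1L1 and OMA1 cut OPA1 into long and short forms, and OMA1 does so under stress. Fission is carried out by DNM1L (DRP1), a cytosolic dynamin-like GTPase that constricts mitochondria after it is recruited by receptors of the outer membrane, among them MFF and FIS1. MFN2 also links mitochondria to the endoplasmic reticulum.

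The values are GCRMA values, taken to be on the log2 scale, on which a difference of 1 is a doubling. A probe set was tested with limma if it exceeded 4 on 4 or more arrays, which 18394 did. Arrays correlated in pairs at r = 0.976 to 0.994, and no pair was identical. The labelled tissue was borne out by its markers, since the mean of 5 tested muscle genes (ACTA1, MB, DES, TTN and MYOT) lay at 15.28 to 15.50 in every dog. In whole muscle, fewer cells of a type and less RNA per cell cannot be told apart. Of the 25 probe sets, 23 passed the filter, each on all 9 arrays and therefore in both groups. The 2 that did not, of MFN2 and MFF, averaged 2.43 and 3.46 and had 0 arrays above the filter.

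No member changed between the feeding groups by the test used, and MFN2 had the largest difference of the 8 when all dogs were included. Of the 8 genes, 0 passed an adjusted p of 0.05 in limma with Benjamini-Hochberg adjustment, as did 0% of all tested probe sets. At an unadjusted p under 0.05 there was 1 gene, MFN2, and the same criterion was met by 5.91% of all tested probe sets. Means were lower in ad libitum dogs for 7 of the 8 genes, against 51.6% of all tested probe sets, and the median log2 difference was -0.13 over the 8 genes and -0.0082 over all tested probe sets. That count depended on single dogs. Without ad libitum dog 2 the differences of MFN1 (0.24), OPA1 (0.060), YME1L1 (0.13) and DNM1L (0.17) were positive, and MFN2, OMA1 and FIS1 stayed lower. Without control dog 9 those of MFN1 (0.062), OPA1 (0.058) and DNM1L (0.085) were positive, and without control dog 4 that of DNM1L (0.049). MFF turned negative without control dog 3 (-0.086) or ad libitum dog 7 (-0.030). The 5 genes of fusion and OPA1 processing had a median of -0.15 (range -0.94 to -0.10 with all dogs). The 3 fission genes had a median of -0.0078, from -0.24 for FIS1 to 0.026 for MFF. Whether these sets of genes differed was not tested. The 4 control dogs and the 5 ad libitum dogs did not overlap for 1 of the 8 genes, MFN2, and for 1.44% of all tested probe sets.

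**Figure D1:**
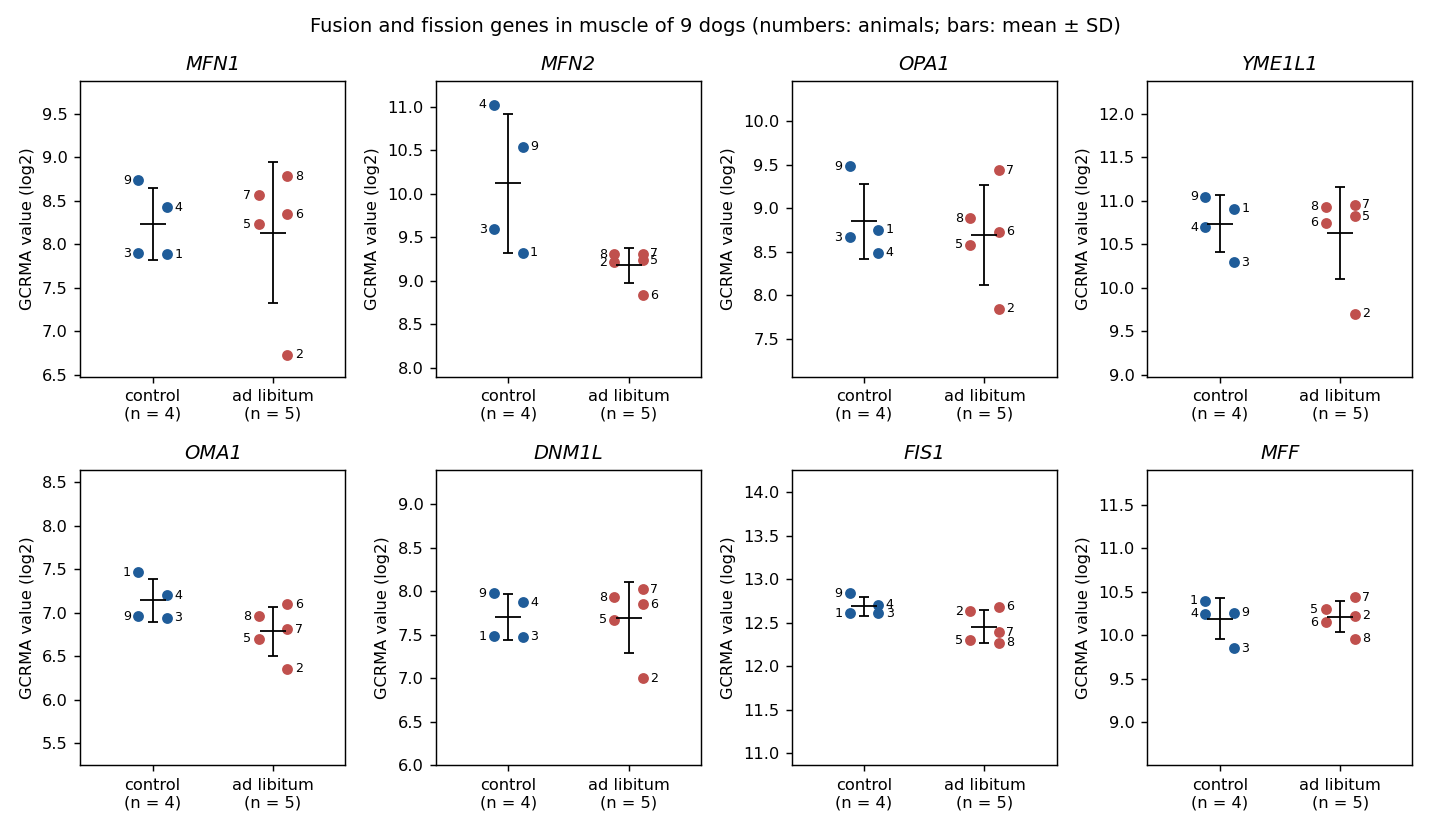
GCRMA value (log2, vertical axis, the same span in every panel) of each of the 8 genes in each dog, by feeding group; points are dogs with their animal number, and bars give mean ± SD. MFN2 ranges from 8.83 to 9.31 in ad libitum dogs and from 9.32 to 11.02 in control dogs, and ad libitum dog 2 is the lowest point for MFN1, OPA1, YME1L1, OMA1 and DNM1L.

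MFN2, a mitofusin known for its high expression in skeletal muscle, was lower in every ad libitum dog than in every control dog, by a narrow margin at the boundary. Its value was 9.32, 9.59, 11.02 and 10.54 in control dogs 1, 3, 4 and 9, and 9.21, 9.23, 8.83, 9.31 and 9.31 in ad libitum dogs 2, 5, 6, 7 and 8. Control dogs 4 and 9 stood apart above all others, and control dog 1 lay next to ad libitum dogs 7 and 8. The ad libitum mean was 9.18 ± 0.20 (SD, n = 5) and the control mean 10.12 ± 0.80 (SD, n = 4). The log2 difference was -0.94 (SE 0.33, 95% interval -1.68 to -0.21), a level 1.92-fold lower, with an unadjusted p of 0.0176 and an adjusted p of 0.796 (limma). It was -0.64 (SE 0.27) without control dog 4 and -0.80 (SE 0.36) without control dog 9, where the unadjusted p was 0.0545 (limma). Without both of these dogs, an alternative chosen after their values were seen, it was -0.28 (SE 0.18, unadjusted p = 0.164), and OMA1 then had the largest difference of the 8, -0.42.

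The other 3 tested probe sets of MFN2 had the same pattern over dogs. Their log2 differences were -0.69 (SE 0.34), -0.91 (SE 0.36) and -1.02 (SE 0.34), each with an adjusted p of 0.796 in limma. In each of the 3, control dog 4 was highest and control dog 9 next, at 10.42 and 9.74, 10.22 and 9.78, and 9.32 and 8.80. Control dog 1 lay below at least 1 ad libitum dog in each of them, so the groups overlapped there. For all 4 tested probe sets, 0 of the 5 ad libitum dogs was above the control mean. Probe sets of 1 gene share the RNA of each dog, so they are no further replicates of the comparison.

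**Figure D2:**
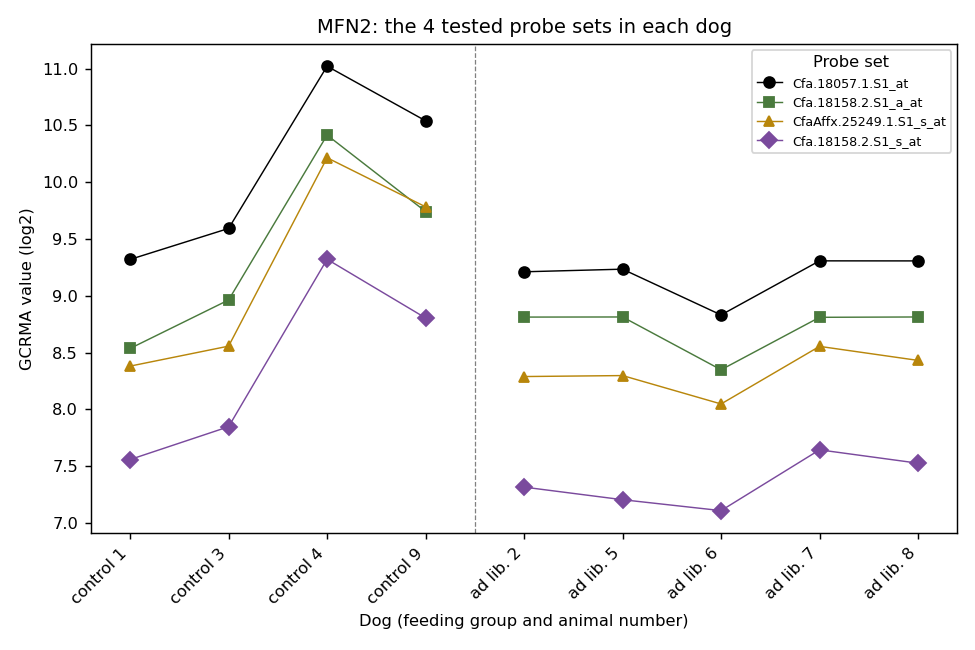
GCRMA value (log2, vertical axis) of the 4 tested MFN2 probe sets in each dog (horizontal axis, control dogs left of the dashed line); each marker shape is a probe set, and lines join values of a probe set within a group. All 4 peak in control dog 4, between 9.32 and 11.02, and have their lowest value in ad libitum dog 6, between 7.11 and 8.83.

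Markers of other cell types are given beside these values, and none passed limma's test after adjustment. For comparison, of 18394 tested probe sets 8900 had higher means in ad libitum dogs. An unadjusted p under 0.05 (limma) was met by 682 with higher and 406 with lower means, 5.91% of all tested. All 8 tested adipocyte markers had higher means in ad libitum dogs, 3 of them at an unadjusted p under 0.05, and their mean level lay at 8.02 to 10.40 in ad libitum and 6.86 to 9.22 in control dogs. Their group means ran from 4.78, for LEP in control dogs, to 13.63, for FABP4 in ad libitum dogs. Control dog 4, with the highest MFN2, had the lowest adipocyte marker level (6.86), while control dog 9 had 8.51. With that level as a covariate the MFN2 difference was -0.50 (SE 0.39, unadjusted p = 0.226, adjusted p = 1.00, limma). All 6 tested macrophage markers and all 7 tested fibroblast markers also had higher means in ad libitum dogs, 3 and 4 of them at an unadjusted p under 0.05. Macrophage marker levels were 5.15 to 8.10 against 5.03 to 5.79, and fibroblast marker levels 8.24 to 12.12 against 7.91 to 9.07. Of 9 macrophage markers on the array only 6 passed the filter. Among these, CD163 would pass on ad libitum dogs 2, 5, 6 and 8 alone. Its control dogs were at 3.40 to 4.06, near the filter value of 4. Of 7 endothelial markers 4 had higher and 3 lower means. FLT1, a VEGF receptor gene, differed by -0.67 (SE 0.17, unadjusted p = 0.00345, adjusted p = 0.796, limma). Its groups did not overlap, nor did those of LEP, at 2.41 (SE 0.57, unadjusted p = 0.00203, adjusted p = 0.796, limma). Over all tested probe sets, 1.44% had groups that did not overlap. Of 6 smooth muscle and pericyte markers 3 had higher and 3 lower means, 1 of the former at an unadjusted p under 0.05. The part of adipocyte, macrophage, fibroblast, endothelial and smooth muscle content in the member differences was not tested. The adipocyte covariate does not settle it, since that level itself differed between the groups. Its means were 9.52 in ad libitum and 8.09 in control dogs. The 8 tested fast fibre markers all had lower means in ad libitum dogs, at 13.77 to 15.39 against 14.91 to 15.38. The 6 slow fibre markers had higher means, at 14.79 to 15.15 against 14.74 to 14.97. In both fibre lists 0 had an unadjusted p under 0.05 (limma). With the slow fibre level as a covariate the MFN2 difference was -0.94 (SE 0.40). The part of the fast fibre level was not tested.

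MFN1, the other mitofusin, differed little between the groups and varied widely among ad libitum dogs. It stood at 7.89, 7.90, 8.43 and 8.74 in control dogs 1, 3, 4 and 9, and at 6.73, 8.23, 8.35, 8.56 and 8.78 in ad libitum dogs 2, 5, 6, 7 and 8. Ad libitum dog 2 was below all others and the remaining ad libitum dogs lay within the control range or just above it. MFN1 had a log2 difference of -0.10 (SE 0.40, adjusted p = 0.971, limma), and without ad libitum dog 2 it was 0.24 (SE 0.22). Its other 2 probe sets had -0.17 (SE 0.35) and 0.14 (SE 0.33). The 95% interval of the MFN1 difference is wide enough to hold one of the size seen for MFN2.

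OPA1 was covered by 6 probe sets, all tested, and all 6 had lower means in ad libitum dogs by less than 1 standard error or close to it. The representative held 8.76, 8.67, 8.49 and 9.48 in control dogs 1, 3, 4 and 9, and 7.85, 8.58, 8.73, 9.44 and 8.89 in ad libitum dogs 2, 5, 6, 7 and 8. The groups overlapped over most of their range, with ad libitum dog 2 lowest and control dog 9 and ad libitum dog 7 highest. Its log2 difference was -0.15 (SE 0.31, 95% interval -0.86 to 0.55, adjusted p = 0.944, limma), and the others ran from -0.24 to -0.058. Without ad libitum dog 2 the difference of the representative was 0.060. The array does not resolve the long and short forms of the OPA1 protein, which arise by proteolysis.

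Of the OPA1 proteases, YME1L1, an ATP-dependent protease, had overlapping groups. Its values were 10.91, 10.29, 10.69 and 11.05 in control dogs 1, 3, 4 and 9, and 9.70, 10.82, 10.74, 10.95 and 10.93 in ad libitum dogs 2, 5, 6, 7 and 8. Apart from ad libitum dog 2, every ad libitum dog lay between the lowest and the highest control dog. YME1L1 differed by -0.11 on the log2 scale (SE 0.28, adjusted p = 0.954, limma), and the second probe set had -0.23 (SE 0.34). Without ad libitum dog 2 the YME1L1 difference was 0.13.

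OMA1, the stress-activated protease, has 1 probe set, with 7.46, 6.94, 7.20 and 6.96 in control dogs 1, 3, 4 and 9, and 6.36, 6.70, 7.10, 6.81 and 6.96 in ad libitum dogs 2, 5, 6, 7 and 8. All 5 ad libitum dogs were below the control mean of 7.14 ± 0.24 (SD, n = 4), but ad libitum dogs 6 and 8 lay within the control range. The log2 difference was -0.36 (SE 0.18, 95% interval -0.75 to 0.040), with an unadjusted p of 0.0728 and an adjusted p of 0.796 (limma). Leaving out 1 dog at a time gave -0.44 to -0.25.

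The fission GTPase DNM1L had the smallest difference of the 8 genes. It stood at 7.48, 7.47, 7.87 and 7.98 in control dogs 1, 3, 4 and 9, and at 7.00, 7.67, 7.85, 8.02 and 7.93 in ad libitum dogs 2, 5, 6, 7 and 8. Ad libitum dog 2 was again lowest, control dogs 1 and 3 came next, and the remaining 6 dogs of both groups lay between 7.67 and 8.02. The log2 difference was -0.0078 (SE 0.22, 95% interval -0.51 to 0.49, adjusted p = 0.997, limma). Its other 2 probe sets had -0.049 (SE 0.24) and 0.24 (SE 0.25), and without ad libitum dog 2 the representative had 0.17.

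Of the fission receptors, FIS1 had lower means in ad libitum dogs with both of its probe sets. The representative held 12.61, 12.61, 12.71 and 12.84 in control dogs 1, 3, 4 and 9, and 12.64, 12.30, 12.68, 12.39 and 12.27 in ad libitum dogs 2, 5, 6, 7 and 8. Ad libitum dogs 5, 7 and 8 were below every control dog, while dogs 2 and 6 lay among the control dogs. FIS1 thus differed by -0.24 on the log2 scale (SE 0.13, 95% interval -0.52 to 0.047), a level 1.18-fold lower, with an unadjusted p of 0.0918 and an adjusted p of 0.796 (limma). The second probe set had -0.21 (SE 0.12). Leaving out 1 dog at a time gave -0.29 to -0.19. Ad libitum dog 2, the lowest for MFN1, OPA1 and DNM1L, held FIS1 above the mean of all dogs.

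MFF, the main receptor of DNM1L, was the 1 gene of the 8 with a higher mean in ad libitum dogs. Its values were 10.40, 9.85, 10.25 and 10.26 in control dogs 1, 3, 4 and 9, and 10.23, 10.30, 10.15, 10.44 and 9.96 in ad libitum dogs 2, 5, 6, 7 and 8. The groups covered nearly the same range, with control dog 3 and ad libitum dog 8 low. The log2 difference was 0.026 (SE 0.15, 95% interval -0.30 to 0.35, adjusted p = 0.983, limma), and its sign turned with each array centred on its median (-0.016). The second tested probe set had 0.11 (SE 0.17).

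**Figure D3:**
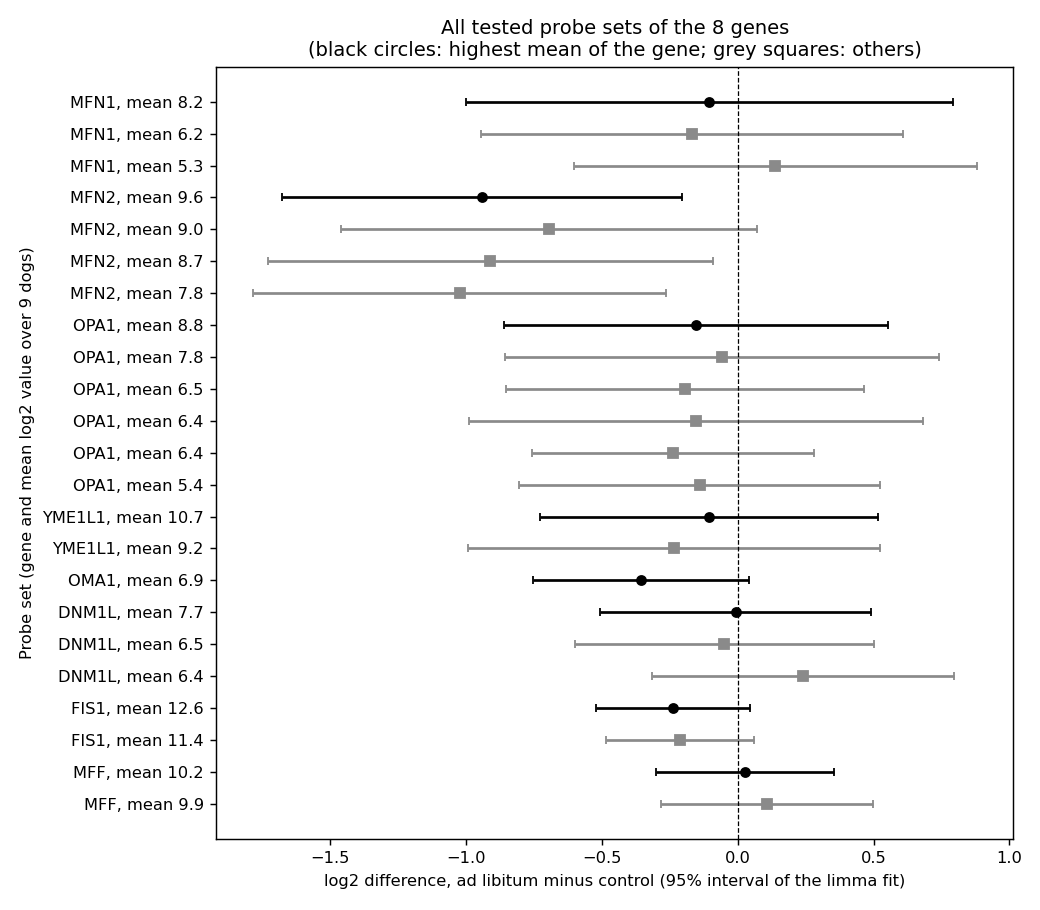
Log2 difference between ad libitum and control dogs (horizontal axis, with the 95% interval of the limma fit) for the 23 tested probe sets of the 8 genes, named by gene and mean value; black circles are the representatives and grey squares the others. The 4 MFN2 probe sets lie between -1.02 and -0.69, and the interval of the one at -0.69 holds 0 (-1.46 to 0.072). Every other probe set lies between -0.36 and 0.24 with an interval that holds 0.

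Across the 23 tested probe sets, 19 had lower and 4 had higher means in ad libitum dogs, while 51.6% of all tested probe sets had lower means. Of the 19, 4 belong to MFN2, 6 to OPA1 and 2 to YME1L1, and probe sets of 1 gene are not separate observations. An unadjusted p under 0.05 (limma) was found for 3 of the 23 and for 5.91% of all tested probe sets. All 3 belong to MFN2 and share the RNA of the same dogs, so they count as 1 gene. After adjustment 0 of the 23 passed. The genes differed in how much they varied between dogs. The SD over all 9 dogs was 0.71 for MFN2 and 0.63 for MFN1, against 0.20 for FIS1 and 0.19 for MFF. By the representatives, a difference of the size seen for MFN2 was outside the 95% interval of DNM1L, OPA1, YME1L1, OMA1, FIS1 and MFF. It was inside that of MFN1. It was also inside the interval of the second YME1L1 probe set (-0.99 to 0.52) and of another OPA1 probe set (-0.99 to 0.68). The remaining OPA1 probe sets did not hold it. Whether MFN2 differed from the other genes in its response was not tested.

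Levels of MFN1, OPA1, YME1L1 and DNM1L varied together from dog to dog. Each had ad libitum dog 2 as the lowest of all 9, by 1.45, 0.92, 0.98 and 0.70 log2 units under the mean of all dogs. Of the 28 pairs among the 8 genes, 6 had an adjusted p under 0.05 for Pearson's r (exact permutation, two-sided, Benjamini-Hochberg over 28 pairs), and these were the 6 pairs of those genes, with r between 0.81 and 0.97. By Spearman's rho 2 of the 28 passed in the same way, MFN1 with DNM1L and OPA1 with YME1L1. The share of such pairs among other tested genes was not computed. Of 7526 other tested genes, 112 had r above 0.9 with MFN1, 91 with YME1L1, 82 with DNM1L and 58 with OPA1. Covariation of this kind was thus not limited to the members. MFN1, which fuses, and DNM1L, which divides, were the closest pair, with r = 0.974 (exact permutation p = 0.000105, adjusted p = 0.00293) and Spearman's rho = 0.917 (exact permutation p = 0.00131, adjusted p = 0.0184) over 9 dogs. Without control dog 1 and ad libitum dog 2, the dogs farthest from the median of MFN1, r was 0.917, and with values centred within each feeding group it was 0.977. OPA1 and YME1L1 had r = 0.820 (exact permutation p = 0.00371, adjusted p = 0.0388) and rho = 0.917, and r was 0.468 without the 2 dogs farthest from the median of OPA1 and 0.845 without the 2 farthest from that of YME1L1. Leaving out 2 dogs in the same ways lowered r from 0.808 to 0.601 and 0.412 for MFN1 with OPA1, and from 0.816 to 0.518 and 0.593 for OPA1 with DNM1L. YME1L1 and DNM1L had r = 0.867, which rested on ad libitum dog 2 and control dog 3, since it was 0.234 without them. MFN1 and YME1L1 had r = 0.903, which was 0.901 without the 2 dogs farthest from the median of MFN1 and 0.377 without the 2 farthest from that of YME1L1.

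**Figure D4:**
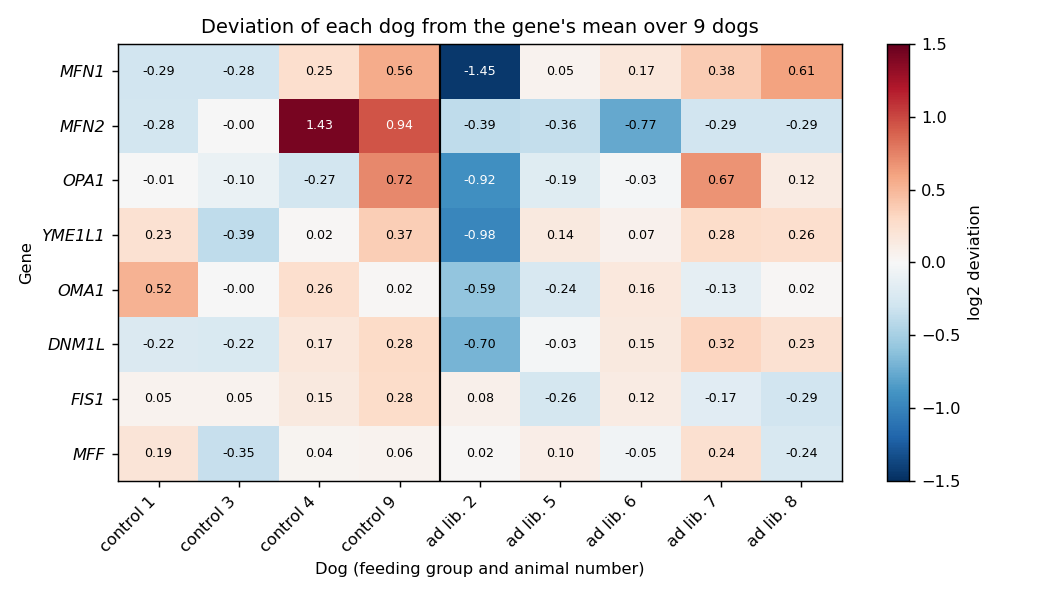
Deviation of each dog (horizontal axis, control dogs left of the line) from the mean of each gene over 9 dogs, in log2 units, printed in each cell and coloured blue below and red above the mean. Ad libitum dog 2 is below the mean by 1.45 for MFN1, 0.92 for OPA1, 0.98 for YME1L1 and 0.70 for DNM1L, while control dogs 4 and 9 are above it by 1.43 and 0.94 for MFN2.

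No pair that included MFN2, OMA1, FIS1 or MFF passed this test. MFN1 and MFN2 had r = 0.303 (exact permutation p = 0.401, adjusted p = 0.876) and rho = 0.267 over 9 dogs. MFN2 and FIS1 had r = 0.511 (exact permutation p = 0.151, adjusted p = 0.530). It was -0.22 without control dogs 4 and 9, the dogs farthest from the median of MFN2, and 0.525 without the 2 farthest from that of FIS1. FIS1 and MFF, both receptors of DNM1L, had r = -0.13 and 0.110 with DNM1L (exact permutation adjusted p = 0.954 for both). Over all 28 pairs the median r was 0.281, and 23 were positive.

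**Figure D5:**
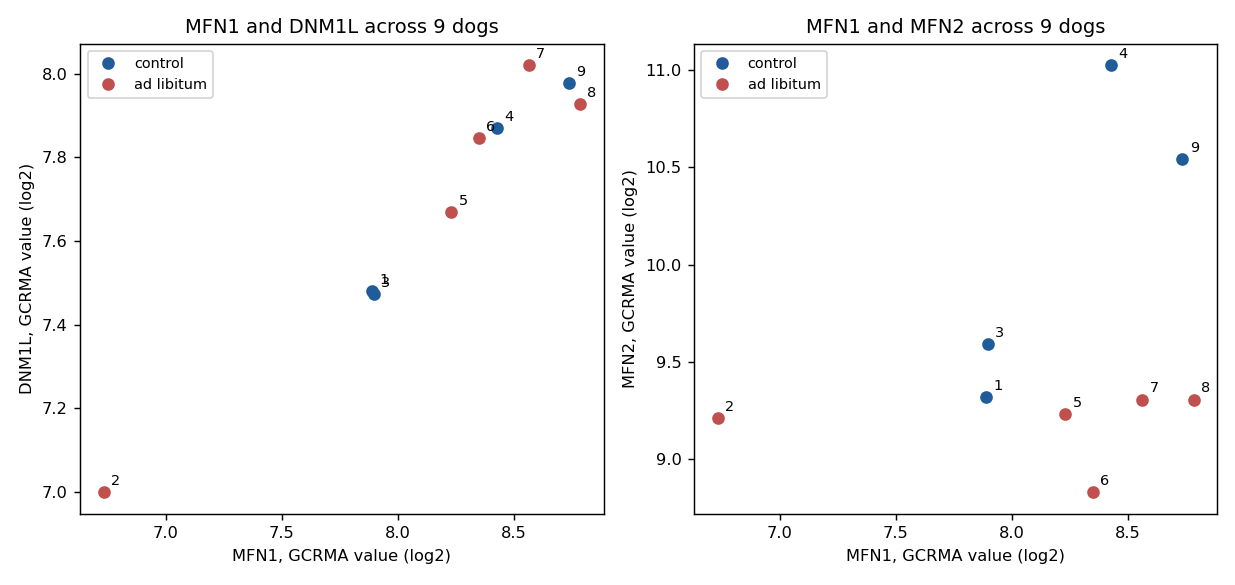
GCRMA values (log2) of MFN1 (horizontal axis) against DNM1L (left) and MFN2 (right) in the 9 dogs, numbered by animal and coloured by feeding group. MFN1 and DNM1L lie along a line from ad libitum dog 2 (6.73 and 7.00) upward, and MFN2 is 11.02 and 10.54 in control dogs 4 and 9 but 9.31 in ad libitum dog 8, which has the highest MFN1 (8.78).

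RNA quality, read as the 3' minus the 5' control probe set of GAPDH, had an ad libitum mean of 2.21 ± 0.068 (SD, n = 5) and a control mean of 2.09 ± 0.11 (SD, n = 4), with a two-sided exact permutation p of 0.0794. It was highest, 2.29, in ad libitum dog 2 and lowest, 1.96, in control dog 3. Over the 9 dogs its correlation with the 8 genes ran from r = -0.45 for OPA1 to 0.200 for MFF, with an adjusted p of 0.798 for all 8 (exact permutation). By Spearman's rho MFN2 was strongest, at -0.63 (exact permutation p = 0.0760, adjusted p = 0.608). For MFN2 r was -0.19, and -0.71 without the 2 dogs farthest from its median. Without the 2 farthest from the median of the GAPDH reading it was -0.20, and with values centred within feeding groups 0.431. With this value as a covariate the MFN2 difference was -1.27 (SE 0.40, adjusted p = 0.999, limma), that of OMA1 -0.42 and that of FIS1 -0.33. The same reading from the actin control probe sets did not set ad libitum dog 2 apart, at 3.66 within a range of 3.29 to 5.33.

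The genes whose profile over the 9 arrays was most like that of each member were sought among 7526 other tested genes, as a description. NFYB, a subunit of the transcription factor NF-Y, was nearest to both MFN1 (r = 0.978) and DNM1L (r = 0.986). Next for these were HNRNPR, an RNA-binding protein (r = 0.976), and TRAPPC13, a vesicle tethering subunit (r = 0.972). For OPA1 they were MTREX, an RNA helicase (r = 0.973), and MRPS31, a mitochondrial ribosomal protein (r = 0.966), and for YME1L1 USPL1 (r = 0.971) and PPP3CA, a catalytic subunit of calcineurin (r = 0.970). Genes with r above 0.9 numbered 112 for MFN1, 91 for YME1L1, 82 for DNM1L and 58 for OPA1. For MFN2 there were 6, led by GNAQ, a G protein alpha subunit (r = 0.968), and ZNF740 (r = 0.928). OMA1 had 2, CREBRF (r = 0.922) and the clock repressor CRY1 (r = 0.907). FIS1 and MFF had 1 each, UMPS (r = 0.942) and SBK3 (r = 0.902), followed by MAOB, monoamine oxidase B (r = 0.879), and ALAD, an enzyme of heme synthesis (r = 0.883). With so many genes compared over 9 arrays, high values can arise among unrelated genes.

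No gene in 5 lists of genes that assist or regulate this machinery passed the test. Of 37 tested, 23 (62.2%, against 51.6% of all tested probe sets) had lower and 14 higher means in ad libitum dogs, with differences from -0.46 to 0.18 and a median of -0.045 on the log2 scale. By limma 0 passed after adjustment and 0 had an unadjusted p under 0.05, which 5.91% of all tested probe sets had.

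Among 7 tested genes that assist fission, 4 had lower and 3 higher means. SLC25A46, an outer membrane protein of the carrier family, differed by -0.25 (SE 0.21) and MTFR1L by 0.11 (SE 0.14). All 5 tested genes that assist fusion or hold cristae together had lower means, with a median of -0.18. They were CHCHD3 (-0.28, SE 0.20) and IMMT (-0.16, SE 0.11), subunits of the cristae-organizing MICOS complex, STOML2 (-0.21, SE 0.13) and the prohibitin PHB (-0.18, SE 0.14), scaffolds of the inner membrane, and MSTO1 (-0.044, SE 0.17). Their adjusted p was 0.806 or above (limma).

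The 10 genes in the list of other proteases and inner membrane proteins were divided evenly, 5 higher and 5 lower, from IMMP2L, an inner membrane peptidase, at -0.30 (SE 0.33) to LETM1, an ion exchanger and no protease, at 0.16 (SE 0.11). Of 9 genes that modify the machinery after translation or clear mitochondria, 5 had lower and 4 higher means. MUL1, a ubiquitin ligase of the outer membrane that acts on mitofusins, differed by -0.46 (SE 0.22, unadjusted p = 0.0629, adjusted p = 0.796, limma), and FUNDC1, a mitophagy receptor, by 0.18 (SE 0.18). Of 6 genes of mitochondrial transport, 4 had lower means, from TRAK1, a motor adaptor, at -0.27 (SE 0.24) to KIF5B, a kinesin heavy chain, at 0.16 (SE 0.21).

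Genes that reflect mitochondrial content were listed as well. Of 8 tested, 0 had an unadjusted p under 0.05 (limma), 6 had lower and 2 higher means, with a median of -0.023. The citrate synthase gene CS had -0.090 (SE 0.14), and the outer membrane channel VDAC1 -0.034 (SE 0.11). TFAM, the packaging factor of mitochondrial DNA, had the most negative value, -0.50 (SE 0.55), and CYCS, cytochrome c, the most positive, 0.058 (SE 0.19).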

How the data were processed

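Muscle RNA of 9 dogs was measured on 1 Affymetrix canine array each. The authors deposited log2 values from GCRMA (no version stated), as named in the submitters' processing notes. This method corrects background from probe sequence, normalizes arrays by quantiles and summarises each probe set. No source used here names the log base, and log2 was inferred from the range, 0.652 to 16.6. Quantile normalization hides a shift of most transcripts in 1 group, and the labels name no batch.

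The 111 control probe sets were left out. Groups and animal numbers came from the labels. Symbols came from the platform annotation of 2016, and all 8 members had the same symbol in the RefSeq table of assembly UU_Cfam_GSD_1.0. Many probe sets match several transcripts (names ending in s_at), so the signal of a related transcript cannot be separated. No sequences or positions are given because no genome was used here.

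The comparison used limma 3.58.1 under R 4.3.3, with lmFit and default eBayes, two-sided and without covariates, on all 9 arrays, with Benjamini-Hochberg adjustment over 18394 probe sets. The fit had 7 residual and 2.32 prior degrees of freedom, and the step was tested on simulated data. Correlations over dogs were tested by exact permutation over all pairings. Named genes were the 8 members, the genes with the most positive and most negative difference in each related list, any of these lists with an unadjusted p under 0.05 (none), and the 2 genes nearest in profile to each member. IMMT, STOML2, PHB, MSTO1, CS and VDAC1 were named after their values were seen. Markers of other cell types were kept apart from this rule, and LEP, FABP4, FLT1 and CD163 were also named after their values were seen. The members and lists were chosen with earlier results of these data known. Alternatives were the filter, a floor, scalings, variance settings, weights, covariates, other probe sets and leaving out each dog.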

Additional observations from a re-analysis of the deposited data

Results flagged for a closer look

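Within groups, 46 sets of values (23 tested probe sets in each feeding group) were examined for a dog far from the rest by Dixon's criterion, which chance meets in about 1 of 20 groups, and 4 met it, all in ad libitum dogs. Dog 2 was far below the others for MFN1 (6.73, nearest 8.23) and for the representative of YME1L1 (9.70, nearest 10.74). Dog 6 was far below for the representative of MFN2 (8.83, nearest 9.21) and for a second MFN2 probe set (8.35, nearest 8.81).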

How the results depend on the processing

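MFN2, OMA1 and FIS1 were lower in ad libitum dogs under every alternative run, at -1.27 to -0.28, -0.44 to -0.25 and -0.33 to -0.15, and no member passed an adjusted p of 0.05 under any. The other directions were not stable. With the adipocyte covariate the difference was 0.37 for MFN1, 0.12 for OPA1, 0.050 for YME1L1 and 0.29 for DNM1L, with the slow fibre covariate 0.11, 0.20, 0.15 and 0.11. With the GAPDH covariate it was 0.050 for MFN1, 0.17 for OPA1, 0.047 for DNM1L and -0.030 for MFF. Without control dogs 4 and 9, chosen after the values were seen, MFN1 had 0.24, YME1L1 0.029 and DNM1L 0.22. MFF had -0.016 with median centring and -0.040 with array weights. DNM1L had 0.061 as the mean over its probe sets and 0.24 by another probe set, and MFN1 had 0.14 by another. With 1 dog left out, differences ran from -0.27 to 0.24 (MFN1), -0.34 to 0.060 (OPA1), -0.26 to 0.13 (YME1L1), -0.090 to 0.17 (DNM1L), -0.086 to 0.095 (MFF) and -1.21 to -0.64 (MFN2). Members with an unadjusted p under 0.05 (1, MFN2) were 2 with median centring, adding OMA1, 0 with the adipocyte covariate, 0 without control dogs 4 and 9, and 0 to 3 with 1 dog left out (0 with control dog 9 left out, and 3 with ad libitum dog 6 left out, adding OMA1 and FIS1). Over all probe sets, 0 passed, against 1 with a floor at log2 4 (CISH) and 0 to 1 with 1 dog left out (LOC489640 without ad libitum dog 8). The causes were not tested. No paired analysis was possible because each animal number occurs in 1 group. The number of arrays limits precision: the median standard error over all probe sets was 0.197.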
